A study of Homo sapiens with 5 samples.

Results

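Glycolysis and the response to low oxygen were followed through 33 human genes on 5 Affymetrix arrays of C4-2B prostate cancer cells. The genes were listed by name, as 17 glycolytic enzymes, 6 genes of glucose uptake and flux control, 9 other genes that hypoxia-inducible factor is known to switch on, and HIF1A, which codes for the regulated subunit of that factor. The gene table held a probe set for 32 of the 33 among 19775 genes in all, and CA9 was not analysed here. A gene is given by its brightest probe set, and the 32 genes had 72 probe sets together.

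Glycolysis splits glucose to pyruvate in the cytosol, and lactate dehydrogenase turns pyruvate to lactate so that the path can go on. Many cancers run it fast even where oxygen is present, while the normal prostate epithelium is known for an unusual metabolism that exports citrate. When oxygen is low, prolyl hydroxylases no longer mark HIF1A for destruction by VHL, and HIF1A then pairs with ARNT and binds short DNA elements with the core ACGTG or GCGTG near genes for glucose transporters, glycolytic enzymes, angiogenesis and mitophagy. HIF1A is controlled mainly as a protein, so its mRNA says little about its activity.

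The study asked how soy isoflavone and BR-DIM act on prostate cancer cells that spread to bone. C4-2B, a bone-metastatic derivative of the LNCaP line, was given 0.1% DMSO as the vehicle control, 25 µM BR-DIM (B-DIM in the sample labels) for 6 h or 48 h, or 25 µM isoflavone for 6 h or 72 h. BR-DIM is a formulated diindolylmethane, a compound derived from cruciferous vegetables, and the isoflavone was the soy mixture G2535, dosed by its genistein. Total RNA of each of the 5 cultures went to 1 array, and how long the control was kept before harvest was not given in the sources used here.

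All values are linear signal intensities that the authors had already scaled, and no condition had a replicate, so no difference could be tested and every value describes these 5 arrays. Ratios are given as log2 of a treated array over the control, where 1 is a doubling, after signals under a floor of 97.1, the median of all signals, were raised to it. The 4 ratios of a gene share the control array, and a ratio at least 2-fold either way was counted. The arrays were alike in the share of probe sets above the floor, at 48.4% to 52.6%, but not at the bright end. The highest signal was 81279 in the control and from 101572 to 128533 on the treated arrays. All 32 genes lay above the floor on all 5 arrays.

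The BR-DIM 48 h and isoflavone 6 h arrays stood apart in genes of the prostate luminal epithelium, the cell type of this line. Of 13 such markers 11 had a probe set, and all 11 lay above the floor in the control, with BR-DIM for 6 h and with isoflavone for 72 h, against 6 with BR-DIM for 48 h and 5 with isoflavone for 6 h. Their summed signals were 16750.2 in the control, 14084 with BR-DIM for 6 h and 15942 with isoflavone for 72 h, against 2051 with BR-DIM for 48 h and 1515 with isoflavone for 6 h. All 11 were at least 2-fold lower than the control on both of these arrays, and 2 were with isoflavone for 72 h. KLK3, prostate-specific antigen, was at 5096 in the control, 14.6 with BR-DIM for 48 h and 269.5 with isoflavone for 6 h, and CDH1, E-cadherin, was at 2195, 99.5 and 85.9. Of the markers with a probe set, at most 1 of 6 for leukocytes, 4 of 6 for fibroblasts and osteoblasts and 1 of 4 for endothelium lay above the floor on any array. Whether the RNA on these arrays came from the same cells as on the others, or from other cells or under an exchanged label, was not tested, and every value from them carries this doubt. Each gene is given at both times of an agent.

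The stretches of DNA before the start sites of 5 genes are shown as examples, and none of these genes was past 2-fold higher than the control. PGAM1, PKM and EGLN3 were at least 2-fold lower on at least 1 array, while BNIP3 and LDHA are hypoxia-inducible genes that stayed within 2-fold of the control on all 4 treated arrays by their brightest probe sets. Each is the 250 bases before the start in RefSeq (GRCh38.p14), written 5′ to 3′ along the gene's strand, and capitals mark ACGTG or GCGTG on either strand. On the opposite strand these read CACGT and CACGC, and CACGTG holds ACGTG once on each strand, in overlap. PGAM1 lies at chr10:97427568-97427817 on the plus strand, PKM at chr15:72231191-72231440 on the minus strand, EGLN3 at chr14:33951075-33951324 on the minus strand, BNIP3 at chr10:131981924-131982173 on the minus strand and LDHA at chr11:18394313-18394562 on the plus strand, where LDHA is shown at the one of its 2 starts with more matches.
PGAM1: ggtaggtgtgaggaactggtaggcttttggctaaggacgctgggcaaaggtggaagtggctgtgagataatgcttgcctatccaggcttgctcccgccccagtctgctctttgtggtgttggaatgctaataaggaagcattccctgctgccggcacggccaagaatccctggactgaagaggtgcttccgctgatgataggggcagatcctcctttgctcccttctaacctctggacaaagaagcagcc
PKM: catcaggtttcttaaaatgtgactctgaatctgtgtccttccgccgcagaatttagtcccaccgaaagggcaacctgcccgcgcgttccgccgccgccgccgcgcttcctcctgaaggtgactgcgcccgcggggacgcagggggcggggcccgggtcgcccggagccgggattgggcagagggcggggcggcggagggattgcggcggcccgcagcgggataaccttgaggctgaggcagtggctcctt
EGLN3: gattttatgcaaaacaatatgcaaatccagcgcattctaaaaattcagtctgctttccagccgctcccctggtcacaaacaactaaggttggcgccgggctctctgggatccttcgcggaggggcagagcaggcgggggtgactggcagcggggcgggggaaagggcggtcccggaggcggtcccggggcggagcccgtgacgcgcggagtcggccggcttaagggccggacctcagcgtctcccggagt
BNIP3: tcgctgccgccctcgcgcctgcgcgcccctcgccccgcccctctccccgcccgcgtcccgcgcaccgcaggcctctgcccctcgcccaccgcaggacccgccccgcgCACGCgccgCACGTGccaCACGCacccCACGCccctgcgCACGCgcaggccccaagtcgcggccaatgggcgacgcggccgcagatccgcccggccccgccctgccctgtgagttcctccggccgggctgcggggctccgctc
LDHA: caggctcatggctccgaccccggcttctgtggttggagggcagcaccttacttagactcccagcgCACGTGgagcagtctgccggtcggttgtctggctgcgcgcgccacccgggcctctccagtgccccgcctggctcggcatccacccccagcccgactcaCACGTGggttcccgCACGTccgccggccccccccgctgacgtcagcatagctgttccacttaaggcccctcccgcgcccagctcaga

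The LDHA stretch held ACGTG 5 times, and that of BNIP3 held ACGTG 2 times and GCGTG 4 times. Neither core was found in the stretches shown for PGAM1, PKM and EGLN3, which says only that these letters are not in these windows. Genes not shown went otherwise. PFKFB3, also past 2-fold lower on an array, held 1 match at one start and 2 at another, and PFKFB4 held 1. SLC2A1, past 2-fold higher on an array, held 0, so the 5 examples show no link between matches and direction. RefSeq promoters were given for 29 of the 33 genes, with 52 starts, and SLC2A3, PFKFB2, BNIP3L and VEGFA had no entry. ACGTG was in 21 of the 52 stretches (40.4%), against 18.5% of 35116 stretches of the same length in the whole table, both counted per start. Those 21 belonged to 18 of the 29 genes, and no share per gene is given for the whole table. GCGTG was in 15 of 52 (28.8%) against 32.2%. Some genes have several starts close together, and part of the genes were listed because the factor is known to switch them on. The shares are thus a description and were not tested. A match is a string of letters and not a measured binding site.

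On at least 1 of the 4 treated arrays 8 of the 32 genes passed 2-fold against the control. No share of all genes past it on at least 1 array is given here, and the shares below are per array. VEGFA, the growth factor that drives blood vessel growth, was higher on 3 of the 4, PKM and PGAM1 of late glycolysis were lower at the later time of both agents, and PFKFB3, PFKFB4, SLC2A1, EGLN3 and BNIP3L each passed 2-fold on 1 array. With BR-DIM for 6 h 1 of 32 genes was at least 2-fold higher, where 2.86% of the 13020 genes measured in that comparison were, and 1 was lower, against 0.806%. With BR-DIM for 48 h 1 was higher (5.33% of all measured genes) and 3 were lower (3.87%). With isoflavone for 6 h 1 was higher (1.18%) and 0 were lower (3.82%), and with isoflavone for 72 h 2 were higher (4.8%) and 3 were lower (2.06%). A single gene of the 32 weighs about as much as these percentages, so the counts are a description and no test was made of them. Under a rule of 1.5-fold, 3 were higher (12.4% of all measured genes) and 1 lower (5.15%) with BR-DIM for 6 h, and 2 were higher (16.8%) and 7 lower (12.6%) for 48 h. By the same rule 2 were higher (7.15%) and 4 lower (11.5%) with isoflavone for 6 h, and 3 were higher (15.0%) and 7 lower (9.73%) for 72 h.

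**Figure D1:**
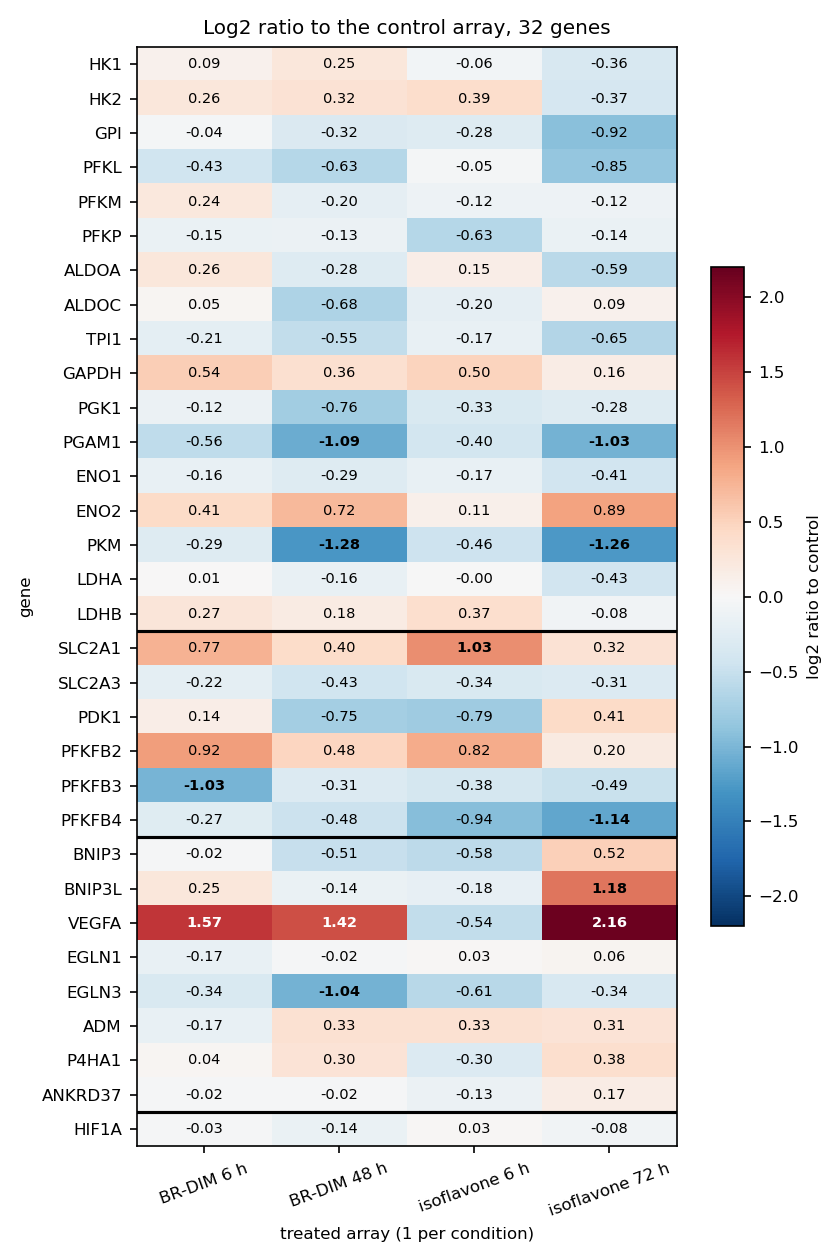
Log2 ratios of the 32 genes (rows) to the control array on the 4 treated arrays (columns), with the value in each cell and bold type at 2-fold or more. Red is higher and blue lower than the control, and black lines part the glycolytic enzymes, glucose uptake and flux control, other hypoxia-inducible genes and HIF1A. VEGFA reaches 2.16 with isoflavone for 72 h, and PKM is at -1.28 and -1.26 at the later times.

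PKM and PGAM1, both of late glycolysis, had the lowest ratios of the 17 enzymes at the later time of each agent. PKM, pyruvate kinase, which makes pyruvate and ATP in the last step, had a signal of 11659.9 in the control, 9563 after 6 h and 4804 after 48 h of BR-DIM, and 8469 after 6 h and 4866 after 72 h of isoflavone. Its log2 ratios were -0.29 and -1.28 under BR-DIM and -0.46 and -1.26 under isoflavone, so that PKM was 2.43-fold lower with BR-DIM for 48 h and 2.40-fold lower with isoflavone for 72 h. The early arrays lay nearer to the control than the late ones with both agents. Its other probe set, at 509.7 in the control, gave -1.58 with BR-DIM for 48 h but -0.46 with isoflavone for 72 h, and with both probe sets averaged the latter call ended, at -0.86. These are cultures measured whole, so fewer cells that carry an mRNA and less of it per cell cannot be told apart.

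PGAM1, phosphoglycerate mutase, which moves the phosphate before the enolase step, had a signal of 17280.2 in the control, 11725 after 6 h and 8096 after 48 h of BR-DIM, and 13066 after 6 h and 8450.0 after 72 h of isoflavone. Against the control this was 2.13-fold lower with BR-DIM for 48 h and 2.04-fold lower with isoflavone for 72 h, at log2 ratios of -1.09 and -1.03. Like PKM it was lower on all 4 treated arrays and lowest at the later times. PGAM1 has 1 probe set, of the _s_at kind, whose probes also match other transcripts of the same or similar genes, and quantile normalization took the isoflavone 72 h value to -0.98.

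PGK1, phosphoglycerate kinase, which makes the first ATP of the path, had a signal of 20360.2 in the control, 18691 after 6 h and 11984 after 48 h of BR-DIM, and 16227 after 6 h and 16719 after 72 h of isoflavone. It stayed within 2-fold by this probe set, at -0.76 with BR-DIM for 48 h and -0.28 with isoflavone for 72 h. Its 5 other probe sets ranged from -1.83 to -0.02 with BR-DIM for 48 h, and 2 of them passed 2-fold, from 3506 to 1426 and from 1607 to 453. The probe sets of PGK1 thus went the same way with BR-DIM for 48 h but not by the same size.

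The enolases went apart. ENO1, the form of most tissues, had a signal of 29245 in the control, 26100.3 after 6 h and 23992 after 48 h of BR-DIM, and 26023 after 6 h and 21946 after 72 h of isoflavone, and was lower on all 4 treated arrays by this probe set, by at most 1.33-fold. With isoflavone for 72 h its further probe sets lay lower, at -0.65, -0.76 and -1.10, where the last is a bound at the floor, from a dim probe set at 208 in the control. ENO2, the form of neurons and neuroendocrine cells, had a signal of 294 in the control, 392 after 6 h and 485 after 48 h of BR-DIM, and 318 after 6 h and 544 after 72 h of isoflavone. It was higher on all 4, by up to 1.85-fold with isoflavone for 72 h, and no value reached 2-fold.

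Of the first enzymes, HK1 and HK2, the hexokinases that trap glucose in the cell, stayed within 1.28-fold and 1.31-fold of the control by their brightest probe sets. Another HK2 probe set, at 283 in the control, gave 0.73 and 0.20 under BR-DIM and 0.95 and -0.13 under isoflavone. HK2, the form that tumours often raise, had a signal of 1004 in the control, 1199 after 6 h and 1254 after 48 h of BR-DIM, and 1312 after 6 h and 778 after 72 h of isoflavone, so it was above the control on 3 arrays and below it with isoflavone for 72 h. GPI, which turns glucose 6-phosphate to fructose 6-phosphate, had a signal of 11639.6 in the control, 11289 after 6 h and 9293 after 48 h of BR-DIM, and 9570.0 after 6 h and 6150.2 after 72 h of isoflavone, and at -0.92 it lay just inside 2-fold with isoflavone for 72 h. The phosphofructokinases, which commit sugar to glycolysis, differed among themselves. PFKL, the liver form, was lowest with isoflavone for 72 h, at 624 against 1123 in the control (-0.85), PFKM, the muscle form, lay between -0.20 and 0.24, and PFKP, the platelet form, was lowest with isoflavone for 6 h, at 2671 against 4133 (-0.63).

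In the middle of the path, the aldolase ALDOA, which cuts the sugar into triose phosphates, had a signal of 26686 in the control, 31864 after 6 h and 21973 after 48 h of BR-DIM, and 29671 after 6 h and 17712 after 72 h of isoflavone. ALDOC, the aldolase of the brain, was lowest with BR-DIM for 48 h, at 253 against 404 in the control (-0.68). TPI1, triose phosphate isomerase, had log2 ratios of -0.21 and -0.55 under BR-DIM and -0.17 and -0.65 under isoflavone and was thus lower on all 4 arrays, more so at the later times. GAPDH, the dehydrogenase that the study used to normalise its RT-PCR, had a signal of 48086 in the control, 69681 after 6 h and 61622 after 48 h of BR-DIM, and 67841 after 6 h and 53605 after 72 h of isoflavone. Its ratio to the control was above 0 on all 4 arrays, at 0.54 and 0.36 under BR-DIM and 0.50 and 0.16 under isoflavone, but under quantile normalization it was 0.05 and -0.16 under BR-DIM and 0.07 and -0.20 under isoflavone, so its direction turned on both late arrays.

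The lactate dehydrogenases stayed near the control. LDHA, which favours the making of lactate, had a signal of 34513 in the control, 34813 after 6 h and 30886 after 48 h of BR-DIM, and 34500.2 after 6 h and 25643 after 72 h of isoflavone, and its largest ratio was -0.43 with isoflavone for 72 h. LDHB, which favours the reverse step, had log2 ratios of 0.27 and 0.18 under BR-DIM and 0.37 and -0.08 under isoflavone, and quantile normalization turned the first 3 to -0.10, -0.26 and -0.02. LDHA, whose stretch above held ACGTG 5 times, was thus within 1.35-fold of the control on all treated arrays.

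Over the 17 enzymes the median log2 ratio was 0.01 with BR-DIM for 6 h, -0.28 with BR-DIM for 48 h, -0.12 with isoflavone for 6 h and -0.37 with isoflavone for 72 h, where the medians of all measured genes were 0.07, 0.06, 0.00 and 0.05. In the same order, 8, 12, 12 and 14 of the 17 were below the control, where 42.8%, 45.5%, 49.7% and 45.7% of all measured genes were. Of these enzymes 0 were at least 2-fold higher on any treated array. Quantile normalization gave medians of -0.04, -0.37, -0.13 and -0.41, so that the direction turned for BR-DIM 6 h. The 9 enzymes left without _s_at and _x_at probe sets had medians of -0.15, -0.48, -0.46 and -0.37, so that the isoflavone 6 h median was then under that of 72 h. Among these 9, ENO1, TPI1 and PGK1 were given by dimmer probe sets than before.

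**Figure D2:**
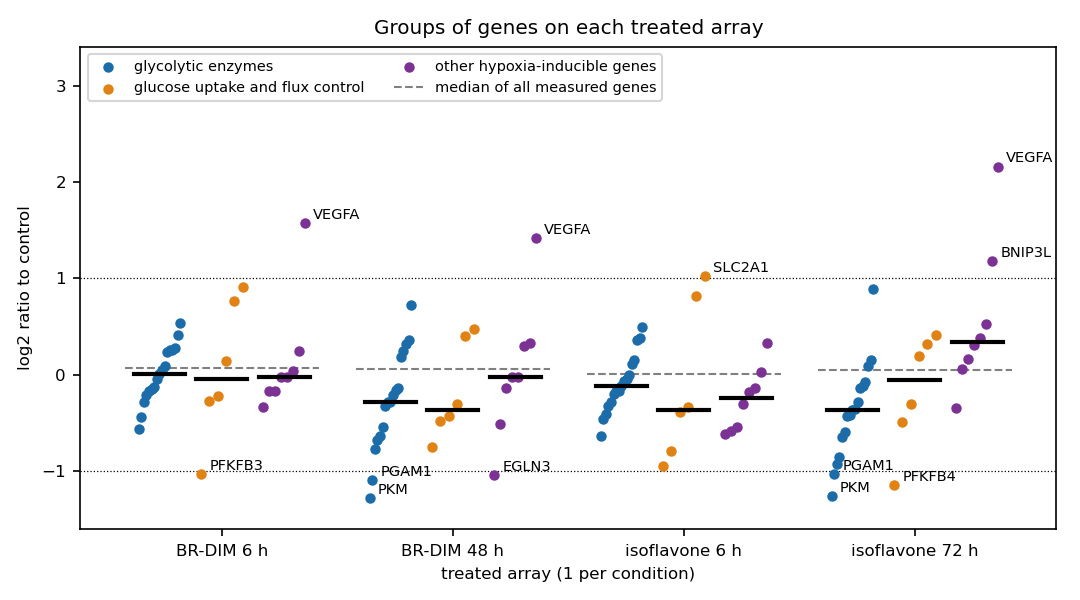
Log2 ratio to the control (vertical axis) of each glycolytic enzyme, gene of glucose uptake and flux control and other hypoxia-inducible gene on the 4 treated arrays (horizontal axis). Points are genes, black bars are group medians, dashed lines are medians of all measured genes and dotted lines mark 2-fold. The enzyme medians are -0.28 and -0.37 at the later times, and the median of the other hypoxia-inducible genes is 0.34 with isoflavone for 72 h.

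Among the genes of glucose uptake and flux control, the glucose transporter SLC2A1 was higher and the regulators PFKFB3 and PFKFB4 were lower, each past 2-fold on 1 array. SLC2A1, which codes for GLUT1, the main glucose carrier of many tumours, had a signal of 386 in the control, 657 after 6 h and 511 after 48 h of BR-DIM, and 786 after 6 h and 482 after 72 h of isoflavone. It was above the control on all 4 treated arrays, 2.04-fold with isoflavone for 6 h and 1.70-fold with BR-DIM for 6 h, and nearer to it at the later times. The SLC2A1 probe set is dim, and with the floor raised to 471.7, the 75th percentile of all signals, the isoflavone 6 h value was 0.74. SLC2A3, the GLUT3 carrier, gave log2 ratios from -0.43 to -0.22 by its brightest probe set, at signals from 144 to 194. Another SLC2A3 probe set, at 157 in the control, gave 0.31 and 0.51 under BR-DIM, -0.69 with isoflavone for 6 h, a bound at the floor, and 0.33 for 72 h, so the direction differed between them on 3 of the 4 arrays.

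The PFKFB enzymes make and break fructose 2,6-bisphosphate, the strongest activator of phosphofructokinase. PFKFB3, a form with mostly kinase activity that hypoxia induces, had a signal of 1114 in the control, 546 after 6 h and 901 after 48 h of BR-DIM, and 855 after 6 h and 795 after 72 h of isoflavone. BR-DIM for 6 h gave the lowest value, 2.04-fold under the control, and at 48 h it was -0.31. PFKFB4 had a signal of 276 in the control, 229 after 6 h and 198 after 48 h of BR-DIM, and 144 after 6 h and 125 after 72 h of isoflavone, and was 1.92-fold lower with isoflavone for 6 h and 2.21-fold lower for 72 h. Both isoflavone values of PFKFB4 lay below both BR-DIM values, at signals close to the floor. PFKFB2, the form of heart, had a signal of 166 in the control, 312 after 6 h and 230.3 after 48 h of BR-DIM, and 293 after 6 h and 189.6 after 72 h of isoflavone, which puts it above the control on all 4 arrays and just inside 2-fold with BR-DIM for 6 h (0.92). PFKFB3 rests on 1 probe set of the _s_at kind.

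PDK1, the kinase that keeps pyruvate out of the mitochondrial citric acid cycle, had a signal of 1056 in the control, 1163 after 6 h and 627 after 48 h of BR-DIM, and 612 after 6 h and 1408 after 72 h of isoflavone. Against the control its log2 ratios were 0.14 and -0.75 under BR-DIM and -0.79 and 0.41 under isoflavone, with the low values on the BR-DIM 48 h and isoflavone 6 h arrays. Those are the same arrays on which the luminal epithelial markers were low. Its other probe sets gave -1.75 and -0.50 with BR-DIM for 48 h, -0.19 and -0.41 with isoflavone for 6 h, and -0.17 and -0.22 with isoflavone for 72 h, so they were under the control at 72 h where the brightest one was above it. The 6 genes of this group had medians of -0.04 and -0.37 under BR-DIM and of -0.36 and -0.06 under isoflavone.

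VEGFA gave the largest ratios of the 32 genes. It had a signal of 874 in the control, 2599.7 after 6 h and 2333 after 48 h of BR-DIM, and 602 after 6 h and 3905 after 72 h of isoflavone. This was 2.98-fold and 2.67-fold higher than the control with BR-DIM and 4.47-fold higher with isoflavone for 72 h, while with isoflavone for 6 h it was 1.45-fold lower. The other probe sets of VEGFA were also above the control with BR-DIM at both times and with isoflavone for 72 h, with log2 ratios from 0.79 to 1.81, from 1.12 to 1.51 and from 0.91 to 1.49, where the highest of each is a bound because the control lay under the floor. With isoflavone for 6 h they did not go one way, at -1.07, -0.46 and 1.12, where the first and the last are bounds at the floor. All 4 VEGFA probe sets are of the _s_at or _x_at kinds, so no value remains without these.

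**Figure D3:**
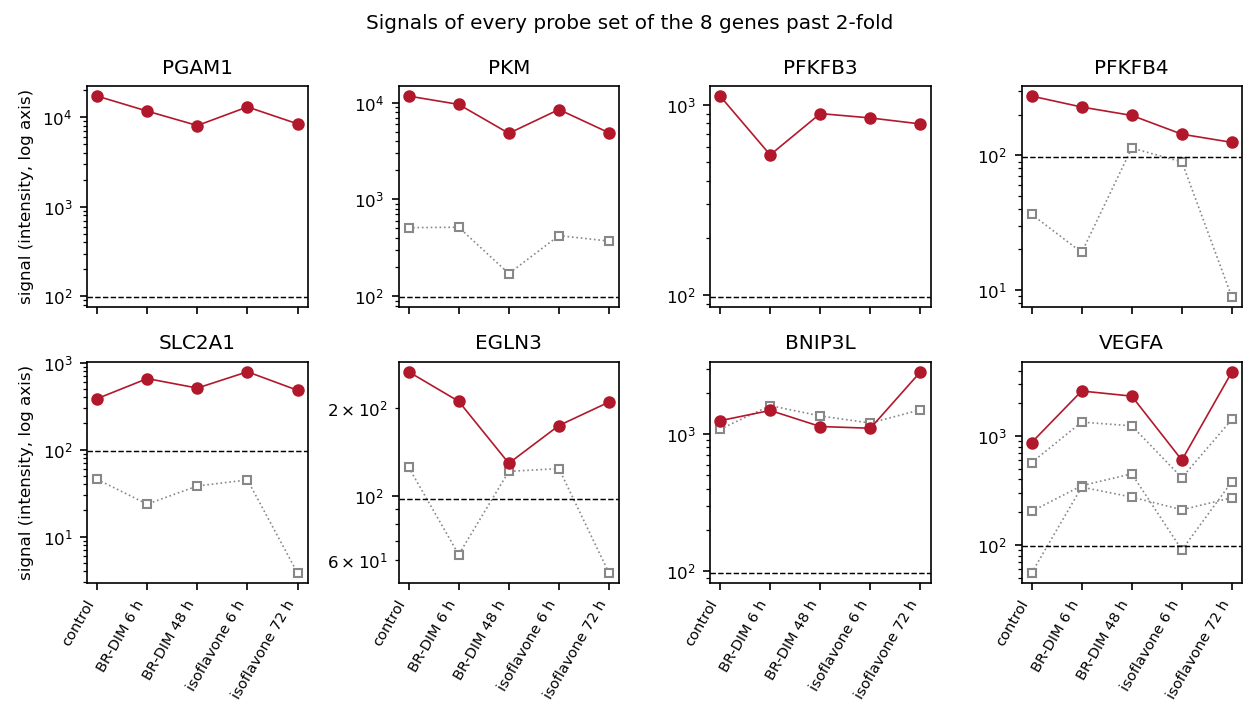
Signal intensity (vertical log axis) on the 5 arrays (horizontal axis) for every probe set of the 8 genes past 2-fold. Red filled points are the brightest probe set, grey open squares are the others, the dashed line is the floor of 97.1, and lines only join the points of a probe set. The brightest VEGFA probe set is at 874 in the control and 3905 with isoflavone for 72 h, and that of PKM is at 11659.9 in the control and 4866 on that array.

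BNIP3 and BNIP3L, which mark mitochondria for removal, were highest with isoflavone for 72 h by their brightest probe sets. BNIP3L had a signal of 1251 in the control, 1486 after 6 h and 1135 after 48 h of BR-DIM, and 1102 after 6 h and 2842 after 72 h of isoflavone, and was 2.27-fold higher than the control on the last of these and within 1.19-fold on the others. Its other probe set was highest with BR-DIM for 6 h, at 1611 (0.57), and gave 0.47 with isoflavone for 72 h, and the average of both gave 0.83, under 2-fold. BNIP3 had a signal of 2586 in the control, 2549 after 6 h and 1819.8 after 48 h of BR-DIM, and 1729 after 6 h and 3714 after 72 h of isoflavone, with log2 ratios of -0.02 and -0.51 under BR-DIM and -0.58 and 0.52 under isoflavone. Its second probe set was highest in the control, at 2216, and gave -1.43 with BR-DIM for 48 h, past 2-fold, and -0.33 with isoflavone for 72 h, opposite to the brightest one.

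For the prolyl hydroxylases that sense oxygen the probe sets gave different answers. EGLN3, the form most induced by HIF, had a signal of 266 in the control, 210.4 after 6 h and 129 after 48 h of BR-DIM, and 174 after 6 h and 209 after 72 h of isoflavone. It was below the control on all 4 arrays and 2.06-fold lower with BR-DIM for 48 h, but at this low signal the value was under 2-fold with both probe sets averaged (-0.55) and at -0.996 after quantile normalization. EGLN1, the main oxygen sensor of most cells, stayed between -0.17 and 0.06 by its brightest probe set. A second EGLN1 probe set, of the _x_at kind, gave -1.13 with BR-DIM for 6 h, from 1239 to 566, then -0.01 for 48 h, and -0.70 and -0.63 under isoflavone. Another, at 452 in the control, gave -0.44 and -0.89 under BR-DIM and -0.46 and -1.18 under isoflavone, past 2-fold on the last.

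ADM, the vasodilator adrenomedullin, P4HA1, a collagen prolyl hydroxylase, and ANKRD37, an ankyrin repeat protein, stayed within 2-fold of the control throughout. ADM had a signal of 1173 in the control, 1044 after 6 h and 1478 after 48 h of BR-DIM, and 1475 after 6 h and 1451 after 72 h of isoflavone. P4HA1 had a signal of 1477 in the control, 1515 after 6 h and 1818 after 48 h of BR-DIM, and 1198 after 6 h and 1919 after 72 h of isoflavone, and was thus highest at the later times. ANKRD37 lay between 234 and 288 on all 5 arrays. The median of the 8 other hypoxia-inducible genes was -0.02 on both BR-DIM arrays, -0.24 with isoflavone for 6 h and 0.34 with isoflavone for 72 h, with 7 of the 8 above the control on the last. Of all measured genes 45.7% were below the control on that array. With all probe sets averaged 6 of the 8 were above it there, at a median of 0.24. With isoflavone for 72 h the enzymes and these genes thus had medians on opposite sides of the control, at -0.37 and 0.34, and the difference was not tested.

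The mRNA of HIF1A itself was nearly level, at 10366 in the control, 10157 after 6 h and 9387 after 48 h of BR-DIM, and 10599 after 6 h and 9838 after 72 h of isoflavone. Its log2 ratios lay between -0.14 and 0.03. ARNT, the partner that HIF1A shares with the aryl hydrocarbon receptor, had a signal of 531 in the control, 516 after 6 h and 576 after 48 h of BR-DIM, and 419.9 after 6 h and 519 after 72 h of isoflavone. Of 18 partners and regulators of HIF 16 were measured. RBX1, a subunit of the ubiquitin ligase that carries VHL, was the one of them past 2-fold on any treated array against the control. It went from 8974 to 4479.5 with BR-DIM for 48 h (-1.0025), where 3.87% of all measured genes were at least 2-fold lower. After quantile normalization 0 of the 16 were past 2-fold on that array, with the lowest at -0.986. With isoflavone for 72 h 1 was then lower, at -1.01.

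At 6 h the agents had the same dose and time and could be set side by side without the control. VEGFA was 4.32-fold higher with BR-DIM for 6 h than with isoflavone for 6 h, the only one of the 32 genes past 2-fold upward, where 7.01% of 13075 genes were, and 0 were lower, where 1.12% were. Under the 1.5-fold rule 3 were higher (17.5%) and 1 lower (6.55%). Next came PDK1, at 1163 against 612 (0.93), and PFKFB4, at 229 against 144 (0.67). PFKFB3 lay the other way, at 546 against 855 (-0.65). Both SLC2A1 and PFKFB2 were above the control with both agents, at 0.77 and 1.03 for SLC2A1 and 0.92 and 0.82 for PFKFB2. The enzymes had a median of 0.10 in this comparison and the other hypoxia-inducible genes one of 0.31, against 0.06 over all measured genes. The isoflavone 6 h array is one of those low in luminal epithelial markers, and its part in these values was not tested.

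The later array of each agent was also set against its own earlier one, which leaves the shared control out. The 17 enzymes had a median of -0.20 for BR-DIM 48 h over 6 h, with 13 below 0, and of -0.43 for isoflavone 72 h over 6 h, with 12 below 0. Of all measured genes 50.8% and 46.8% were below 0, at medians of -0.01 and 0.04. PKM was lower at the later time of both agents, at -0.99 and -0.80, and so were PGAM1, at -0.53 and -0.63, and ALDOA, at -0.54 and -0.74. Without the _s_at and _x_at probe sets 9 enzymes were left, and their median was 0.07 for BR-DIM and -0.22 for isoflavone. They were not all on the same probe sets as before. ENO1, TPI1 and PGK1 were then given by dimmer ones, at 208, 286 and 3506 in the control. For BR-DIM this moved ENO1 from -0.12 to 0.44 and TPI1 from -0.34 to 0.30.

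With isoflavone for 72 h over 6 h 4 of the 32 genes were at least 2-fold higher, where 7.77% of 12658 genes were, and 0 were lower (1.89%). They were VEGFA, BNIP3L, PDK1 and BNIP3, at log2 ratios of 2.70, 1.37, 1.20 and 1.10 by their brightest probe sets. The further probe sets gave 0.32 for BNIP3L, 0.01 and 0.19 for PDK1 and 0.35 for BNIP3, and with all probe sets averaged VEGFA alone stayed past 2-fold, at 1.71, against 0.84, 0.47 and 0.73 for the other genes. For BR-DIM 48 h over 6 h the same genes had -0.16, -0.39, -0.89 and -0.49, and 0 of the 32 passed 2-fold upward (1.83% of 13383 genes) or downward (3.74%). The low luminal epithelial array was the earlier one with isoflavone and the later one with BR-DIM, so by these probe sets the 4 genes were lower in both agents on the array that stood apart, and the part of that in these ratios was not tested. Of the 8 other hypoxia-inducible genes 7 were above 0 for isoflavone, at a median of 0.49, and the median for BR-DIM was -0.08. For isoflavone 46.8% of all measured genes were below 0. With all probe sets averaged 5 of the 8 were above 0 for isoflavone, at a median of 0.49. Between times, dose was the same within each agent but the later times differ, at 48 h and 72 h.

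**Figure D4:**
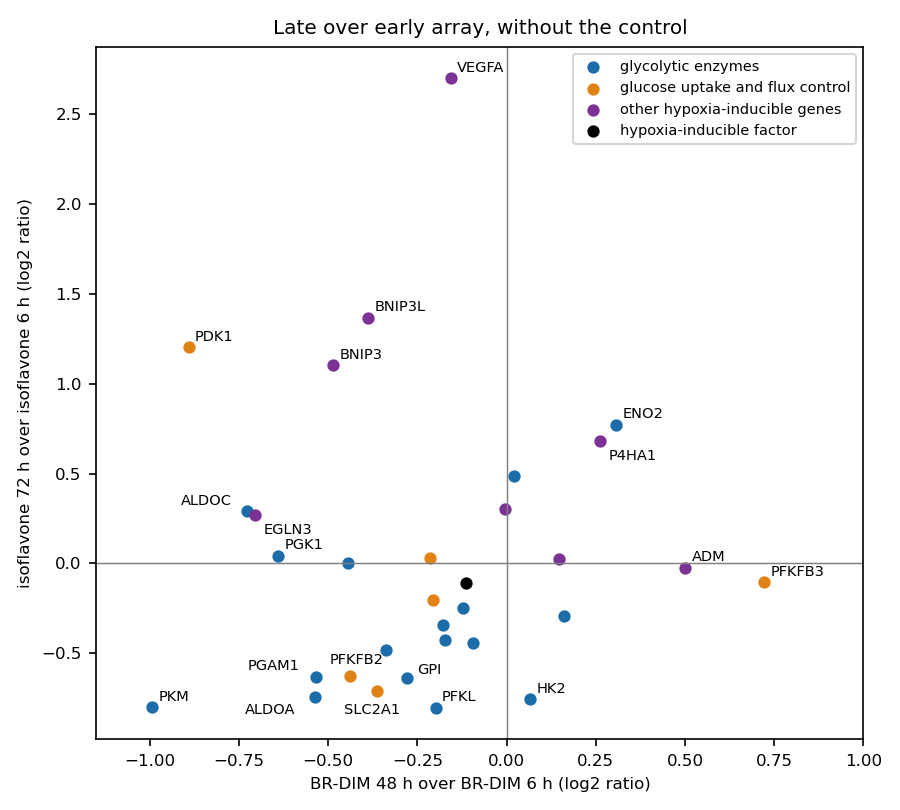
Log2 ratio of the later to the earlier array for BR-DIM (48 h over 6 h, horizontal axis) and isoflavone (72 h over 6 h, vertical axis), 1 point per gene by its brightest probe set, coloured by group. PKM lies at -0.99 and -0.80, and VEGFA, BNIP3L, PDK1 and BNIP3 lie at the upper left, above 1 with isoflavone and below 0 with BR-DIM.

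A wider set of genes of the same pathways was counted too. Its lists were drawn up with earlier results of these data known, so their counts beside the shares of all genes are a description only. Of 32 further genes of glycolysis and pyruvate use 27 had a probe set, of which 21 to 23 were measured, and on the 4 treated arrays, BR-DIM before isoflavone and early before late, 1, 2, 0 and 2 were at least 2-fold higher and 0, 1, 0 and 2 lower. In that order 2.86%, 5.33%, 1.18% and 4.8% of all measured genes were higher and 0.806%, 3.87%, 3.82% and 2.06% lower. PCK2, the mitochondrial enzyme that makes phosphoenolpyruvate, had a signal of 701 in the control, 2041 after 6 h and 2004 after 48 h of BR-DIM, and 925 after 6 h and 2299 after 72 h of isoflavone. It was past 2-fold on 3 arrays, at 1.54, 1.51 and 1.71. Around the entry of pyruvate to mitochondria, MPC2, a subunit of the pyruvate carrier, was at 2637 with BR-DIM for 48 h against 5287, and DLAT, a subunit of pyruvate dehydrogenase, was at 1222 with isoflavone for 72 h against 2781. PDK2, a kinase that turns that enzyme off, was at 353 against 998 with isoflavone for 72 h (-1.50), and PDP1, a phosphatase that turns it on, was at 1325 against 642 with BR-DIM for 48 h (1.04).

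Of 37 further hypoxia-inducible genes 34 had a probe set, of which 31 to 33 were measured. On the 4 arrays in the same order 4, 8, 0 and 5 were at least 2-fold higher and 0, 3, 7 and 0 lower, against the shares of all genes just given. The medians were 0.19, 0.32, -0.03 and 0.34, where those of all measured genes were 0.07, 0.06, 0.00 and 0.05. DDIT4, an inhibitor of mTORC1 that many stresses induce, had a signal of 629.7 in the control, 5359 after 6 h and 2726 after 48 h of BR-DIM, and 182 after 6 h and 3347 after 72 h of isoflavone, and STC2, stanniocalcin 2, had one of 348 in the control, 1227 after 6 h and 2109 after 48 h of BR-DIM, and 91.9 after 6 h and 1828 after 72 h of isoflavone. Both had the pattern of VEGFA, high with BR-DIM at both times and with isoflavone for 72 h and low with isoflavone for 6 h, where STC2 was under the floor. ARRDC3, an arrestin-like protein, was highest with BR-DIM for 48 h, at 822 against 225. TFRC, the transferrin receptor, was lowest there, at 2583 against 10589 (-2.04), and CA12, a carbonic anhydrase of the cell surface, was at 127 with isoflavone for 6 h and 236 with BR-DIM for 48 h against 499. CA12 was thus low on the pair of arrays with low luminal epithelial markers, and above the control with isoflavone for 72 h (0.69).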

How the data were processed

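Total RNA of 5 C4-2B cultures, 1 per condition, was hybridised to Affymetrix human genome arrays. The authors made the deposited intensity values, 1 linear signal per probe set, with Affymetrix software (MAS5 per the submitters' processing notes) and scaled each array, with trimmed means from 498.1 to 498.4, but neither the scaling target nor the software version is given in the sources used here. All signals were used as deposited. Of 54613 probe sets, 41091 had 1 gene symbol in the platform annotation used, and 1801 with several symbols and 11721 not in that table were left out. The probe set brightest on average over the 5 arrays stood for its gene, signals under 97.1 (the median of all) were raised to it, and a gene was measured where at least 1 of the 2 arrays compared lay above it. Groups came from the sample labels. With 1 array per condition there is no replicate spread and no test, and the number of arrays limits the precision.

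The 33 genes and the further gene and marker lists were chosen with earlier results of these data known. All 33 were named, and of each further list the 3 largest rises and falls past 2-fold with a signal of at least 4 floors. Alternatives were quantile normalization, a floor at the 75th percentile or none, all probe sets averaged, probe sets ending in _s_at or _x_at left out, and a 1.5-fold rule. The alternatives for the later over the earlier array and for the enzyme medians were chosen after seeing the data. Promoter stretches are from RefSeq. Python 3.11.15, numpy 2.4.6, pandas 2.3.3, scipy 1.17.1 and matplotlib 3.10.9 were used, and the procedure was tested on simulated data.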

Additional observations from a re-analysis of the deposited data

Results flagged for a closer look

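Of the genes below the control with isoflavone for 6 h and above it for 72 h, 4 differed at least 2-fold between these arrays. The log2 ratio of isoflavone 72 h over 6 h by the brightest probe set was 2.70 for VEGFA, 1.37 for BNIP3L, 1.20 for PDK1 and 1.10 for BNIP3. With all probe sets averaged it was 1.71, 0.84, 0.47 and 0.73, so that VEGFA alone stayed past 2-fold. With 1 array per time the difference was not tested. The isoflavone 6 h array is one of the pair with low luminal epithelial markers, and its part in these values was not tested. The further probe sets of PDK1 and the further one of BNIP3 were below the control at both times, and that of BNIP3L was above it at both. Of the further VEGFA probe sets, the pair above the floor in the control lay below it at 6 h and above it at 72 h.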

How the results depend on the processing

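Without replicates, the values move only with the processing. Without the _s_at and _x_at probe sets, which takes away VEGFA, PGAM1, PFKFB3, SLC2A1 and EGLN3 as measured here, the genes at least 2-fold higher numbered 0 with BR-DIM for 6 h, 0 with BR-DIM for 48 h, 0 with isoflavone for 6 h, 1 with isoflavone for 72 h and 0 for BR-DIM over isoflavone at 6 h, and those lower numbered 0 with BR-DIM for 6 h. The enzyme median for BR-DIM 48 h over 6 h then turned to 0.0655 over 9 enzymes, with ENO1, TPI1 and PGK1 given by dimmer probe sets. The enzyme median for BR-DIM 6 h over the control turned to -0.1522 there, to -0.0405 under quantile normalization and to -0.0441 with the floor at the 75th percentile. With the floor at the 75th percentile 0 genes were higher with isoflavone for 6 h, and with all probe sets averaged 1 was higher with isoflavone for 72 h and 1 for isoflavone 72 h over 6 h. For BR-DIM 48 h over 6 h 1 gene was lower under quantile normalization (PKM) and 2 with all probe sets averaged (PKM and PDK1). Under the 1.5-fold rule, whose shares over all genes stand with the counts above, 3 were higher with BR-DIM for 6 h, 2 were higher and 7 lower with BR-DIM for 48 h, 2 were higher and 4 lower with isoflavone for 6 h, 7 were lower with isoflavone for 72 h, and 3 were higher and 1 lower for BR-DIM over isoflavone at 6 h. The remaining counts stayed within 1.5 times, but not always through the same genes. Without the _s_at and _x_at probe sets 2 genes were lower with BR-DIM for 48 h, among them PGK1, at -1.30 by a dimmer probe set. With isoflavone for 72 h 3 were then lower, among them ENO1, at -1.10 by a dim probe set and as a bound at the floor. PGAM1 and EGLN3 were no longer counted. Of the single values of the 8 genes past 2-fold or of the 4 past it between the isoflavone times that the alternatives gave, 64 stayed past it in the same direction and 9 came under it, each named beside its gene. Many of the 64 could not move, so this tally says little about how firm the values are. All 32 genes lay above the floor, so leaving the floor out changed none of them. Averaging could not move a gene with 1 usable probe set. Leaving out _s_at and _x_at probe sets could not move a gene whose brightest one was of another kind. Quantile normalization turned the sign of 3, 3, 3 and 1 of the 32 genes on the 4 treated arrays and of 7 for BR-DIM over isoflavone at 6 h. Of 25 further probe sets above the floor on all arrays, 21, 24, 19 and 19 had the sign of the one used. No paired analysis was possible because each condition has 1 array. No array could be left out.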
